A study of Mus musculus with 35 samples.

Results

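The 10 genes Ezh1, Ezh2, Suz12, Eed, Jarid2, Bmi1, Ring1, Rnf2, Cbx7 and Cbx8 encode subunits or partners of the Polycomb repressive complexes. They were chosen by name and make up 10 of the 11982 gene names in the RNA-seq table of mouse hematopoietic stem/progenitor cells (HSPCs). All 10 were listed in the table. RNA was compared between HSPCs from the bone marrow of wild-type (WT) mice and of JMJD1B-/- mice, with 2 libraries per genotype. Both genotypes shared the strain 129P2xC57BL/6J. The knockout was a gene trap of Kdm3b, the gene for the histone demethylase JMJD1B, and was made from embryonic stem cells of a mutant repository. The study's methods give a single age range, of adult mice of both sexes, for all its animals. Which age and sex stand behind each RNA library, the gate used for HSPCs and any treatment other than the gene trap are not given in the sources used here.

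Polycomb proteins keep genes silent by modifying histones. Polycomb repressive complex 2 (PRC2) methylates lysine 27 of histone H3 (H3K27) through Ezh2 or the alternative enzyme Ezh1, which need the core partners Eed and Suz12. Polycomb repressive complex 1 (PRC1) attaches ubiquitin to histone H2A through Rnf2 (RING1B) or the alternative ligase Ring1 (RING1A), each paired with a PCGF protein such as Bmi1, and its CBX subunits read methylated H3K27. In blood formation, Bmi1 is known for sustaining the self-renewal of stem cells and Ezh2 for its use in dividing progenitors.

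Among 3 pairs of members that can replace each other, Ezh2 and Ezh1 differed most in level, and their promoter sequences are shown for that reason. The sequences are from RefSeq, assembly GRCm38.p6, and run 5′ to 3′ on the strand of the gene, which is the minus strand for both, from 250 bases before to 50 bases after the annotated start. Ezh1 lies at chr11:101226414-101226713 and Ezh2 at chr6:47594981-47595280. Capitals mark the letters CCAAT, a box bound by the factor NF-Y, and TTTNGCGC, an E2F-type motif, on either strand.
Ezh1: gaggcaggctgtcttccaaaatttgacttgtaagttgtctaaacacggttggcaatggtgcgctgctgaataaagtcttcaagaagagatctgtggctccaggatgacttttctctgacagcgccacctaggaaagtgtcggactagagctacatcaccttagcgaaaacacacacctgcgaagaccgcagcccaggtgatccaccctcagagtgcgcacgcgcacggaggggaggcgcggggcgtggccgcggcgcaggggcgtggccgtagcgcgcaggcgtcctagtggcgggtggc
Ezh2: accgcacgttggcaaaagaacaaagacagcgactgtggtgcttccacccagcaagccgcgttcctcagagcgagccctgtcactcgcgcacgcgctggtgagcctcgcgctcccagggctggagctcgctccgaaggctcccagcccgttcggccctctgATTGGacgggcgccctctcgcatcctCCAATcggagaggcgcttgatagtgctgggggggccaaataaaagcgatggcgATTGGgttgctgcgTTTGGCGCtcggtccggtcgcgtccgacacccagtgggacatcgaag
The Ezh2 window held 3 matches to CCAAT and 1 to TTTNGCGC, and the Ezh1 window held neither. Neither window held GGGCGG, an Sp1-type GC box, or the E-box CACGTG, on either strand, and none of the marked matches overlap. All 10 genes matched a promoter window, and Jarid2 had 2, which gave 11 windows. CCAAT was found in 63.6% of these windows, against 38.5% of the 10786 windows of genes in the RNA-seq table. GGGCGG was found in 72.7% against 61.4%. TTTNGCGC was present in the Ezh2 window alone among the 11, and in 2.51% of windows of genes in the table. CACGTG was present in the windows of Bmi1 and Cbx8, and in 10.1% of windows of genes in the table. The 11 windows had a median of 24 CpG dinucleotides, between 17 for Eed and 41 for Suz12, while the median over genes in the table was 20. These matches describe the letters in a window and no binding was measured there.

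Expression is given as RPKM, the reads per kilobase of gene scaled to the mapped reads of the library, so that levels of different genes can be set side by side. The 10 genes covered a 33.9-fold range in WT HSPCs. Ezh2 was the highest at 74.5 ± 10.2 RPKM (mean ± SD, n = 2, as for all means below) and exceeded 95.2% of the genes in the table. Suz12 followed at 56.1 ± 6.95 RPKM. Eed at 25.5 ± 0.148 and Jarid2 at 24.3 ± 3.16 RPKM came next, and their WT values overlapped. Rnf2 at 15.7 ± 1.30 and Bmi1 at 15.4 ± 1.47 RPKM formed the next pair and overlapped as well. Ezh1 stood at 9.17 ± 0.819 RPKM, below all values of Bmi1 and 8.12-fold below Ezh2. Cbx7 at 5.45 ± 1.01 and Ring1 at 5.33 ± 0.596 RPKM did not differ beyond their spread. Cbx8 was the lowest at 2.20 ± 0.122 RPKM and exceeded 15.7% of the genes in the table. Apart from the overlapping neighbours, each gene stood above the next in both WT libraries. In JMJD1B-/- HSPCs the order of the means was the same except that Ring1 took the seventh place, Ezh1 the eighth and Cbx7 the ninth.

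**Figure D1:**
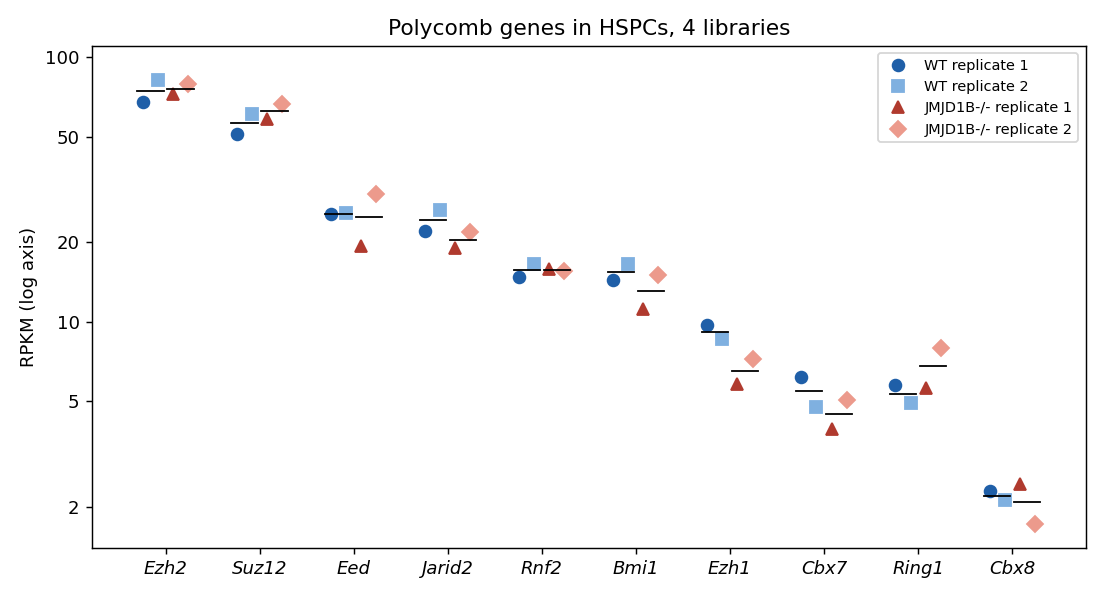
RPKM of the 10 Polycomb genes on a log axis, ordered by the WT mean, with 1 point for each of the 4 libraries and a bar at the mean of each genotype (n = 2). Both JMJD1B-/- points lie below both WT points for Ezh1 and Jarid2, and the genotypes overlap for the other 8 genes.

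The depth of the libraries limits the counting precision of these levels. It was estimated from low genes, whose values are steps of whole reads. By that estimate 1 RPKM stands for 17.5 and 24.6 reads per kilobase in WT replicates 1 and 2. In JMJD1B-/- replicates 1 and 2 it stands for 6.1 and 21.0 reads per kilobase. The depth used is the smallest that fitted 12 such genes, so these figures are approximate. A level of 3 reads per kilobase then corresponds to 0.171, 0.122, 0.491 and 0.143 RPKM in the same order, for counting error only. The thinnest value among the 10 genes was that of Cbx8 in JMJD1B-/- replicate 1, with an estimated 14.9 reads per kilobase. Kdm3b, the targeted gene, was listed at 31.0 and 24.3 RPKM in WT and at 4.00 and 4.63 RPKM in JMJD1B-/- libraries, a log2 fold change of −2.65 (SE 0.24, adjusted p = 0.0314, limma). The adjusted p of Kdm3b was above 0.05 with median-ratio scaling (0.0721), quantile normalization (0.0978), limma without trend (0.212), a test of each gene alone (0.608) and without WT replicate 1 (0.549) or 2 (0.457), while the log2 fold change stayed between −2.82 and −2.42 in every alternative. The RNA of Xist, made from the inactive X chromosome of females, was listed at 332 RPKM in WT replicate 2 and at or under 0.0510 RPKM in the other 3 libraries. High Xist RNA thus marked 1 WT library and neither JMJD1B-/- library, and the part of sex in the levels of the 10 genes was not tested. None of the 10 genes lies on the X chromosome.

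The comparison of genotypes asked whether loss of JMJD1B went with another level of Polycomb RNA. No Polycomb gene passed the test, and 6 were lower and 4 higher in JMJD1B-/- than in WT HSPCs. The RNA of PRC2 summed to 176 and 203 RPKM over its 5 genes in WT and to 175 and 205 RPKM in JMJD1B-/- libraries, and that of the 5 PRC1 genes to 43.3 and 44.8 against 39.0 and 45.2 RPKM. The 2 genotypes overlapped in both sums. Tests were run with limma on log2(RPKM + 0.1) over 11863 genes, and fold changes are on that scale. At an unadjusted p under 0.05, 0 of the 10 genes were called, against 10.1% of all genes tested (6.33% lower, 3.81% higher). At an adjusted p under 0.05 the count was also 0 of 10, against 0.0421% of all genes, which is 5 genes. The median log2 fold change of the 10 genes was −0.09, and that of all genes tested was −0.02. They were −0.03 and 0.09 when JMJD1B-/- replicate 1 was left out, and −0.19 and −0.10 when replicate 2 was. The median size of the change without its sign was 0.20 for the 10 genes and 0.26 for all genes. The genotypes did not overlap for 2 of the 10 genes, against 42.9% of all genes tested. In these 2, Ezh1 and Jarid2, both values of JMJD1B-/- were the lower ones, against 22.7% of all genes, and in 0 of 10 they were the higher ones, against 20.1%.

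**Figure D2:**
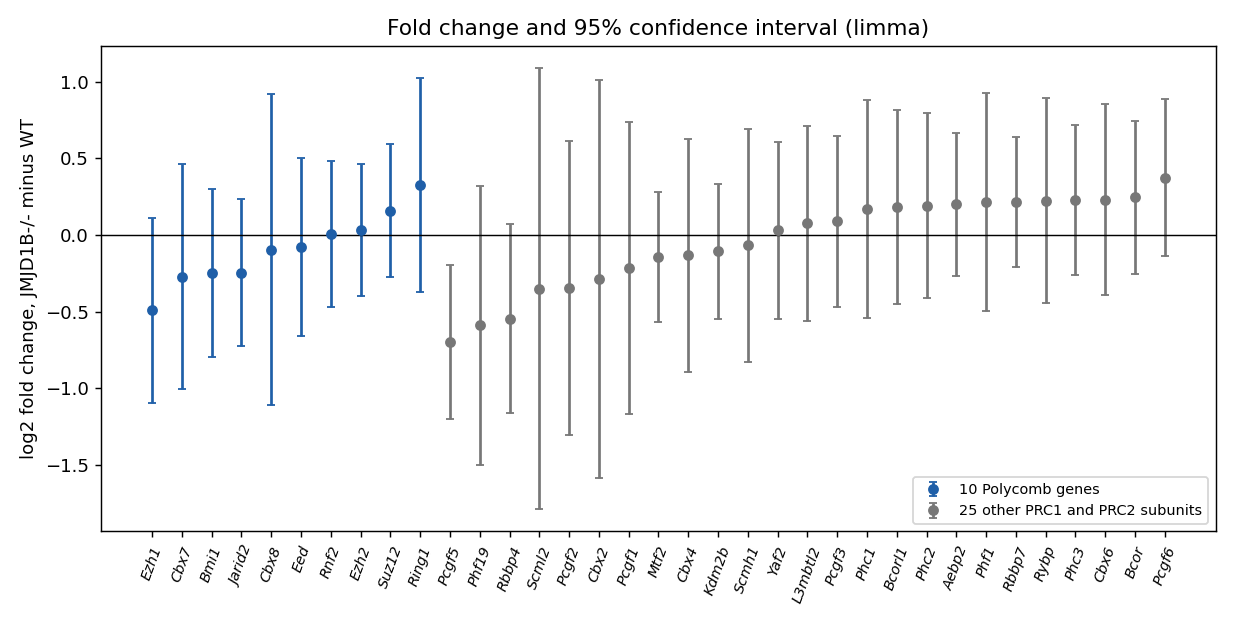
log2 fold change (JMJD1B-/- minus WT) with its 95% confidence interval from limma for the 10 Polycomb genes and for 25 other PRC1 and PRC2 subunits, ordered by value within each set (n = 2 libraries per genotype). The intervals of all 10 genes include 0, and among the other subunits that of Pcgf5 alone does not.

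Among the catalytic subunits of PRC2, Ezh1 had the largest change of the 10 genes with all 4 libraries. The log2 fold change of Ring1 was larger in size without WT replicate 1 (0.44 against −0.40). The same held without JMJD1B-/- replicate 1 (0.57 against −0.34). Ezh1 was listed at 9.75 and 8.59 RPKM in WT and at 5.82 and 7.22 RPKM in JMJD1B-/- libraries. Both JMJD1B-/- values were below both WT values, with the lowest in JMJD1B-/- replicate 1. The mean was 71.1% of that of WT, and the log2 fold change was −0.49 (SE 0.26, 95% confidence interval −1.10 to 0.11, unadjusted p = 0.0968, adjusted p = 0.575, limma). That interval corresponds to 46.8% to 108% of the WT level. Without JMJD1B-/- replicate 2 the log2 fold change of Ezh1 was −0.64 (unadjusted p = 0.0318, adjusted p = 0.187, limma), the one omission or alternative that brought any of the 10 genes under an unadjusted p of 0.05. With 1 library left in a genotype, such a fit assumes that it varies like the 2 libraries of the other. Ezh2 was listed at 67.3 and 81.7 RPKM in WT and at 72.5 and 79.2 RPKM in JMJD1B-/- libraries. Both JMJD1B-/- values of Ezh2 fell between the WT values. Its log2 fold change was 0.03 (SE 0.18, 95% confidence interval −0.40 to 0.46, adjusted p = 0.973, limma), and it turned to −0.07 with quantile normalization.

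The core partners of the enzymes and Jarid2 had smaller fold changes than Ezh1. Suz12, needed for the stability of PRC2, was listed at 51.2 and 61.0 RPKM in WT and at 58.4 and 66.6 RPKM in JMJD1B-/- libraries, with a log2 fold change of 0.16 (95% confidence interval −0.28 to 0.59). Eed, which binds methylated H3K27, was listed at 25.4 and 25.6 RPKM in WT and at 19.3 and 30.3 RPKM in JMJD1B-/- libraries. The 2 JMJD1B-/- libraries of Eed thus lay on either side of the WT values, and the log2 fold change of −0.08 had an interval of −0.66 to 0.50. Jarid2, an accessory factor that helps to recruit PRC2, was listed at 22.0 and 26.5 RPKM in WT and at 19.0 and 21.8 RPKM in JMJD1B-/- libraries. The values of Jarid2 did not overlap, although JMJD1B-/- replicate 2 and WT replicate 1 were close. Its log2 fold change was −0.25 (SE 0.20, 95% confidence interval −0.73 to 0.23, adjusted p = 0.712, limma).

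Of the PRC1 ligases, Rnf2 had the smaller fold change. It was listed at 14.7 and 16.6 RPKM in WT and at 15.8 and 15.5 RPKM in JMJD1B-/- libraries. Both JMJD1B-/- values lay between the WT values, and the log2 fold change of Rnf2 was 0.00 (SE 0.20, 95% confidence interval −0.47 to 0.48). Ring1 was listed at 5.75 and 4.91 RPKM in WT and at 5.62 and 7.94 RPKM in JMJD1B-/- libraries, with JMJD1B-/- replicate 2 alone above both WT values. Its mean was 127% of that of WT, and the log2 fold change of 0.32 (SE 0.30, 95% confidence interval −0.37 to 1.02, adjusted p = 0.739, limma) was the highest of the 10 genes. The value for Ring1 was 0.08 when JMJD1B-/- replicate 2 was left out, where Cbx8 was higher at 0.15. It was 0.57 for Ring1 when replicate 1 was left out. Bmi1 was listed at 14.4 and 16.5 RPKM in WT and at 11.2 and 15.0 RPKM in JMJD1B-/- libraries. JMJD1B-/- replicate 1 was below both WT libraries and replicate 2 between them, and the log2 fold change of Bmi1 was −0.25 (95% confidence interval −0.80 to 0.30, adjusted p = 0.750, limma).

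The CBX subunits overlapped between the genotypes. Cbx7 was listed at 6.17 and 4.74 RPKM in WT and at 3.92 and 5.07 RPKM in JMJD1B-/- libraries, with a log2 fold change of −0.27 (95% confidence interval −1.01 to 0.46). Cbx8 was listed at 2.28 and 2.11 RPKM in WT and at 2.44 and 1.71 RPKM in JMJD1B-/- libraries, with one JMJD1B-/- library above and the other below both WT libraries. Its log2 fold change was −0.10, with a standard error of 0.43 in the fit with a trend, which gives low genes a larger spread, and of 0.25 with a test of that gene alone. The 95% confidence interval of Cbx8, −1.11 to 0.92, corresponds to 46.3% to 189% of the WT level.

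Which genes had separate genotypes depended on how libraries were scaled. With median-ratio scaling, Bmi1 and Cbx7 joined Ezh1 and Jarid2 among the genes with both JMJD1B-/- libraries below both WT libraries (24.0% of all genes tested under that scaling), and Suz12 and Ring1 had both above (21.5% of all genes). With quantile normalization, Bmi1 joined Ezh1 and Jarid2 below (21.0% of all genes), and Ring1 stood above (24.9% of all genes). Ezh1 and Jarid2 kept their separation under all 3 scalings, but the share of all genes that did so was not counted. Under single scalings, 42.9% to 45.9% of all genes tested had separate genotypes. Over all genes tested, the calls at an unadjusted p under 0.05 were 751 lower and 452 higher as deposited (62.4% lower), and 714 lower and 666 higher with quantile normalization (51.7% lower).

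A ratio of 2 genes within a library does not depend on its scaling by a factor, and 3 pairs of alternative subunits were compared in this way. The log2 ratio of Ezh1 to Ezh2 was −2.79 and −3.25 in WT and −3.64 and −3.46 in JMJD1B-/- libraries, so that both JMJD1B-/- values were lower. Ezh1 made up 12.7% and 9.52% of the RNA of both enzymes in WT and 7.43% and 8.36% in JMJD1B-/- libraries. The difference of −0.53 had an exact permutation p of 0.333 (two-sided), which is the smallest that 2 against 2 libraries can give. That difference was −0.30 without WT replicate 1 and −0.76 without WT replicate 2. The log2 ratio of Ring1 to Rnf2 was −1.36 and −1.76 in WT and −1.50 and −0.97 in JMJD1B-/- libraries, a difference of 0.32 (exact permutation p = 0.667, two-sided), which was 0.06 when JMJD1B-/- replicate 2 was left out and 0.59 when replicate 1 was. The log2 ratio of Cbx7 to Cbx8 was 1.43 and 1.17 in WT and 0.68 and 1.56 in JMJD1B-/- libraries, a difference of −0.18 (exact permutation p = 1, two-sided), and the difference turned to 0.26 without JMJD1B-/- replicate 1. The genotypes overlapped in both of these ratios. Adjustment over the 3 pairs could not bring any p below 0.333.

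**Figure D3:**
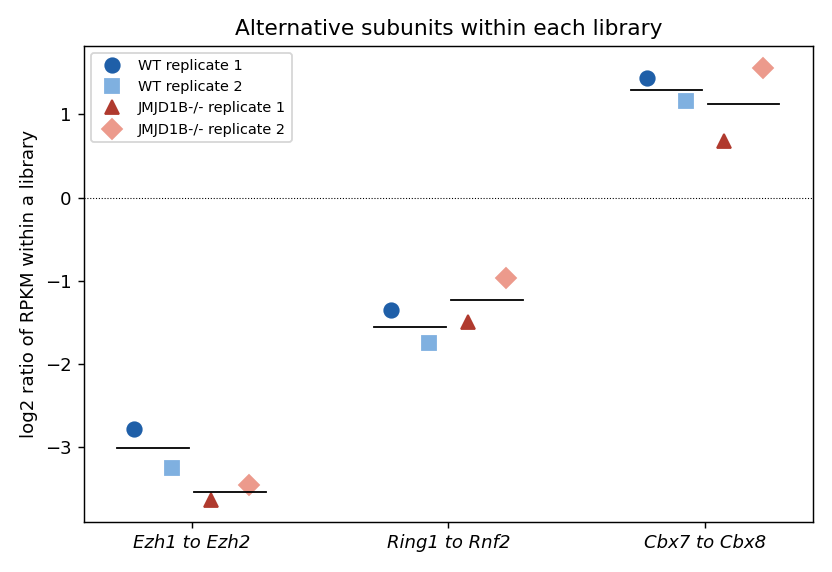
log2 ratio of RPKM within each of the 4 libraries for 3 pairs of alternative subunits, with bars at the genotype means (n = 2). The Ezh1 to Ezh2 ratio lies between −3.64 and −3.46 in JMJD1B-/- and between −3.25 and −2.79 in WT libraries, and the other 2 pairs overlap.

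Bmi1, Cbx7 and Cbx8 belong to families whose members exclude each other in PRC1. All members of both families in the lists were therefore set beside them, whatever their change. Bmi1 held 19.1% and 23.6% of the RNA of the 6 PCGF genes in WT and 19.6% and 21.2% in JMJD1B-/- libraries, with both JMJD1B-/- values between the WT values. Pcgf5, a subunit of variant PRC1 without CBX proteins, held the largest PCGF share in both WT libraries, with 32.9% and 34.4%, and 23.0% and 24.3% in JMJD1B-/- libraries. Pcgf6, also of variant PRC1, held 15.4% and 18.0% in WT and 24.8% and 24.5% in JMJD1B-/- libraries. Among the 5 CBX genes, Cbx6 held the largest share in every library, with 39.3% and 38.4% in WT and 42.5% and 48.8% in JMJD1B-/- libraries, where both were higher. Cbx7 held 24.2% and 21.4% in WT and 18.3% and 19.0% in JMJD1B-/- libraries. Cbx8 held 8.94% and 9.51% in WT and 11.4% and 6.44% in JMJD1B-/- libraries, one above and one below the WT shares. These shares were not tested.

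**Figure D4:**
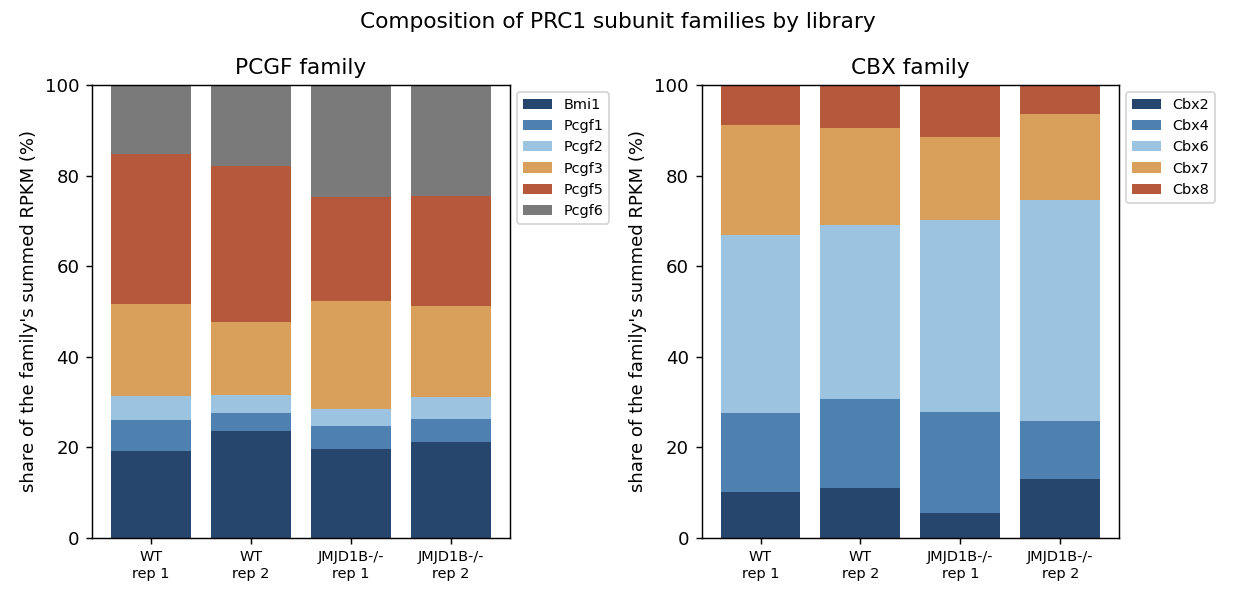
Share of the summed RPKM of the 6 PCGF genes (left) and the 5 CBX genes (right) held by each gene, in percent, in each of the 4 libraries. The Pcgf5 share is 32.9% and 34.4% in WT and 23.0% and 24.3% in JMJD1B-/- libraries, and Bmi1 holds between 19.1% and 23.6% in all 4.

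The other subunits of the complexes gave 1 call. Of 25 other PRC1 and PRC2 subunits, 11 were lower and 14 higher in JMJD1B-/- HSPCs with a median of 0.08 for the log2 fold change. An unadjusted p of 0.05 was passed by 1 of the 25, against 10.1% of all genes tested. That gene was Pcgf5, listed at 24.8 and 24.1 RPKM in WT and at 13.1 and 17.1 RPKM in JMJD1B-/- libraries. Both JMJD1B-/- values were well below the WT values, and the log2 fold change was −0.70 (SE 0.22, unadjusted p = 0.0130), but the adjusted p was 0.376 (limma). Over the alternatives the unadjusted p of Pcgf5 ran from 0.00168 to 0.0883. It was above 0.05 with a test of each gene alone (0.0677), without WT replicate 1 (0.0883) and without WT replicate 2 (0.0737), and the adjusted p was below 0.05 without JMJD1B-/- replicate 2 alone (log2 fold change −0.89, adjusted p = 0.0422, limma). Pcgf6 had the highest fold change of the PRC1 list, with 11.6 and 12.6 RPKM in WT and 14.2 and 17.3 RPKM in JMJD1B-/- libraries (log2 fold change 0.37). Its log2 fold change was 0.52 (unadjusted p = 0.0397, limma) when JMJD1B-/- replicate 1 was left out and 0.23 (unadjusted p = 0.327) when replicate 2 was. Of the 6 other PRC2 subunits, 3 were lower and 3 higher and 0 were called. They ranged from Phf19, a reader of methylated H3K36 (log2 fold change −0.59), to Rbbp7, a histone-binding protein (0.22, between 0.08 and 0.35 when 1 WT library was left out).

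Genes for enzymes that remove or oppose Polycomb marks, and for their partner subunits, were set beside the complexes. Of the 5 analysed genes for H3K27 demethylases and the H2A deubiquitinase complex PR-DUB, 2 were lower, 3 higher and 0 called, against 10.1% of all genes tested. Kdm6a, an X-linked H3K27 demethylase, had the lowest log2 fold change of −0.45, with 20.1 and 31.8 RPKM in WT and 18.4 and 18.6 RPKM in JMJD1B-/- libraries. Its highest value was in WT replicate 2, the library with Xist RNA. The log2 fold change of Kdm6a was −0.12 (unadjusted p = 0.708, limma) without that library and −0.78 (unadjusted p = 0.0377) without WT replicate 1. Bap1, the deubiquitinase itself, had the highest at 0.38, which was 0.12 when JMJD1B-/- replicate 2 was left out and 0.63 (unadjusted p = 0.0107, limma) when replicate 1 was. Of 11 analysed Trithorax genes, which act against Polycomb silencing, 7 were lower and 4 higher with a median of −0.09, and 1 of the 11 was called at an unadjusted p under 0.05, a share near the 10.1% of all genes. This was Dpy30, a subunit of the complexes that methylate lysine 4 of histone H3. Dpy30 was listed at 13.1 and 18.4 RPKM in WT and at 25.4 and 22.7 RPKM in JMJD1B-/- libraries, with both JMJD1B-/- values higher (log2 fold change 0.63, SE 0.23, unadjusted p = 0.0291, adjusted p = 0.438, limma). Over the alternatives its unadjusted p ran from 0.0122 to 0.252. It was not called in limma without the trend (unadjusted p = 0.0683), with a test of each gene alone (unadjusted p = 0.133) or without WT replicate 1, where the log2 fold change was 0.38 (unadjusted p = 0.252). Wdr5, a further subunit of those complexes, was the lowest of the Trithorax list at −0.27, with 0.04 when JMJD1B-/- replicate 1 was left out and −0.58 (unadjusted p = 0.0157, limma) when replicate 2 was.

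Genes known as targets of Polycomb silencing in other settings could be examined only in part. Of 20 such genes, 7 were analysed and 13 were not listed. Each gene in the table reaches 1 RPKM in at least 1 library, but why the 13 are absent was not tested. None of the 7 had separate genotypes, against 42.9% of all genes tested, and 0 were called, against 10.1%. Their log2 fold changes ran from −0.28 for Hoxb4 to 0.39 for Hoxa5, both HOX factors of blood progenitors, with a median of −0.08 and standard errors of 0.40 to 0.84. When 1 library was left out, Hoxb4 ran from −0.51 to −0.05 and Hoxa5 from 0.09 to 0.69.

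The 3 genes with the pattern nearest to that of Ezh1 were Neil3, Elmo2 and Bscl2, at distances of 0.03, 0.04 and 0.05 in centred log2 values over the 4 libraries, among 11212 genes with a mean of at least 1 RPKM. Neil3 was listed at 30.4 and 27.4 RPKM in WT and at 18.3 and 22.7 RPKM in JMJD1B-/- libraries. With 4 libraries such likeness describes the order and size of 4 values and no more.

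Markers of several cell types moved with the genotype, and fewer cells of a type cannot be told apart from less RNA per cell in bulk libraries. Of 10 HSPC markers, 9 were lower in JMJD1B-/- libraries and 5 were called at an unadjusted p under 0.05, where 6.33% of all genes tested were called lower and 3.81% higher, with a summed level of 291 and 252 RPKM in WT and 158 and 207 RPKM in JMJD1B-/- libraries. Kit, the receptor that marks these cells, was listed at 66.9 and 62.5 RPKM in WT and at 51.6 and 92.7 RPKM in JMJD1B-/- libraries. Ly6a, which encodes the stem cell marker Sca-1, was at or under 2.96 RPKM in all 4 libraries. All 9 erythroid markers were higher and 7 were called, with sums of 464 and 709 against 1276 and 1884 RPKM. Of 10 tested granulocyte markers, 6 were lower and 4 higher (6 and 2 called), and the 12 listed ones summed to 304 and 207 against 98.4 and 59.1 RPKM. Of 7 basophil and mast cell markers, 6 were lower and all 6 were called, with sums of 478 and 554 against 103 and 46.5 RPKM. All 6 megakaryocyte markers were lower (4 called, sums of 677 and 615 against 266 and 374 RPKM), and 6 of 7 monocyte markers were lower (3 called, 110 and 134 against 104 and 26.6 RPKM). Of the lymphocyte markers, 2 of 7 for B cells were analysed, 1 lower and 1 higher and both called (3.89 and 2.66 against 25.8 and 4.34 RPKM). Blk alone held 24.6 of the 25.8 RPKM in JMJD1B-/- replicate 1. Of 9 for T and NK cells 8 were higher and 1 lower (2 and 1 called). Their sums were 22.8 and 32.5 against 63.7 and 16.1 RPKM, with the highest in the same JMJD1B-/- replicate 1. All 19 proliferation genes were higher with 3 called and a median log2 fold change of 0.27, and their sum was 1279 and 1501 against 1625 and 1693 RPKM. In the listed markers the 1 gene with values of 0 was Camp, a late granulocyte gene, in 2 libraries. At an adjusted p under 0.05, 1 granulocyte marker and 1 basophil and mast cell marker were called (limma). In each of the other lists of this paragraph 0 were called. The part of these shifts in the values of the Polycomb genes was not tested.

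**Figure D5:**
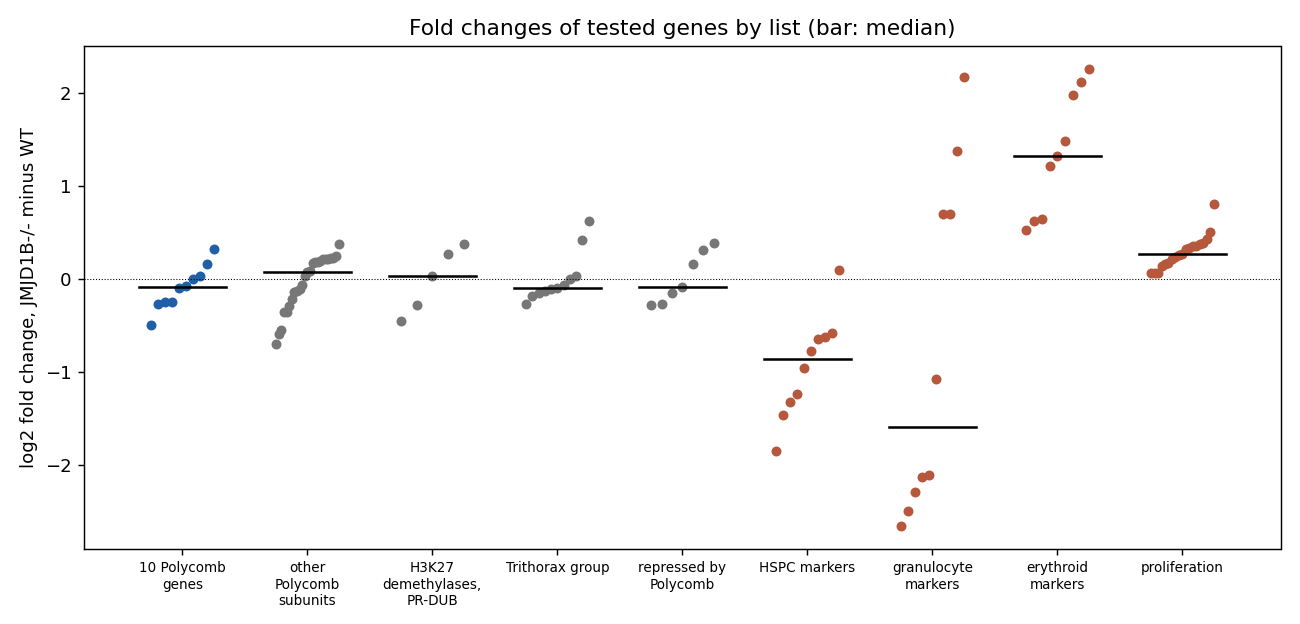
log2 fold change (JMJD1B-/- minus WT) of each tested gene, by list, with a bar at the median of the list. The 10 Polycomb genes (blue) lie between −0.49 and 0.32 around a median of −0.09, while the medians of HSPC and erythroid markers (orange) are −0.86 and 1.32.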

How the data were processed

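RNA was measured by sequencing of polyA libraries (TruSeq RNA Sample Preparation Kit V2) from HSPCs, and the series' ChIP libraries were not used here. For every gene and library, the table that the authors deposited holds RPKM with 1 added. The submitters' processing notes name TopHat2, Novoalign and mm9 without roles, and the counting program and gene annotation are not given in the sources used here. RPKM was taken as the deposited value minus 1. The table has 12024 entries for 11982 names, and the entries of 42 repeated names were averaged. Libraries were grouped by the labelled genotype. The series' description gives 2 biological replicates per genotype, but no label ties a library to an animal. The p-values are relative to the spread between these libraries, which limma estimates for a gene partly from other genes of similar level.

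The genotypes were compared with limma 3.58.1 (R 4.3.3), two-sided, with a trend and no replicate term, on the log2 of RPKM plus 0.1. The 11863 genes that averaged 0.5 RPKM or more entered the fit, and p-values were adjusted over all of them by Benjamini-Hochberg. The fit was also run on simulated data with 4-fold changes in 200 genes. Changes as small as those of the Polycomb genes were not simulated. The Polycomb genes, gene lists and tests were chosen with earlier results of these data known. Besides the 10 genes and Kdm3b, the text names from each Polycomb-related list the genes with an unadjusted p under 0.05. From each such list it also names those with the lowest and highest fold change. The 3 genes nearest to the member with the largest change with all 4 libraries are named as well. Other genes of the PCGF and CBX families and Kit, Ly6a, Camp and Xist stand outside that rule. Mouse symbols Kmt2a to Kmt2d were matched through older names. Reads per gene could not be recovered from RPKM, and no count test was run. Depth is the smallest that fitted 12 low genes, and at most 10 fitted with any 1 library's depth halved. Windows around gene starts were read from RefSeq (GRCm38.p6) and matched by symbol. Alternatives were pseudocounts of 1 and 0.01, no filter and a mean of at least 1 RPKM, median-ratio scaling, quantile normalization, limma without trend, a test of each gene alone, the first entry of a repeated name, a replicate block and omission of each library.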

Additional observations from a re-analysis of the deposited data

How the results depend on the processing

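Of 140 alternative fold changes of the 10 Polycomb genes, 130 kept their direction and their side of an unadjusted p of 0.05, 9 changed sign and 1, that of Ezh1 without JMJD1B-/- replicate 2, passed the threshold. With all 4 libraries the lowest unadjusted p was 0.0610, for Ezh1 with median-ratio scaling. The sign changed for Ezh2 (−0.067) and Cbx8 (0.16) with quantile normalization and for Rnf2 (−0.0012) with median-ratio scaling. Quantile normalization also gave 0.07 for Suz12, −0.15 for Cbx7, −0.35 for Phf19, 0.13 for Rbbp7, −0.05 for Hoxb4, 0.65 for Hoxa5 and a median of 0.02 over all genes. When 1 library was left out, log2 fold changes ran from −0.11 to 0.17 for Ezh2, −0.40 to 0.25 for Eed, −0.080 to 0.089 for Rnf2, −0.34 to 0.15 for Cbx8, −0.64 to −0.34 for Ezh1, −0.38 to −0.11 for Jarid2, −0.46 to −0.04 for Bmi1, −0.46 to −0.09 for Cbx7, 0.08 to 0.57 for Ring1, 0.03 to 0.29 for Suz12, −0.58 to 0.041 for Wdr5, and −0.62 to 0.26 for the log2 ratio of Cbx7 to Cbx8. The log2 ratio ran from −0.76 to −0.30 for Ezh1 to Ezh2 and from 0.06 to 0.59 for Ring1 to Rnf2. The count of the 10 genes with an unadjusted p under 0.05 then ran from 0 to 1.

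The count of the 10 genes with both JMJD1B-/- libraries below both WT libraries was 4 rather than 2 with median-ratio scaling (24.0% of all genes), and 3 to 5 when a library was left out (31.9% to 49.0% of all genes). The count above was 2 rather than 0 with median-ratio scaling (21.5%), 1 with quantile normalization (24.9%), and 1 to 3 when a library was left out (28.8% to 46.5%), where fewer libraries overlap less by construction. Over all genes, the calls with a library left out ran from 190 to 1777 lower and from 127 to 1367 higher. The 5 calls at an adjusted p became 18 with a pseudocount of 1, 3 with a pseudocount of 0.01, 3 with a mean of at least 1 RPKM, 1 with median-ratio scaling, 1 with quantile normalization, 0 in limma without trend (where 768 were lower and 346 higher at an unadjusted p under 0.05), 0 with a test of each gene alone, and 1 to 989 with a library left out. The cause was not tested.

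Replicate numbers are shared by the genotypes, but same-numbered libraries did not deviate together (r = −0.05 over 11863 genes). This single correlation over all genes cannot tell whether they share a litter, a day or a batch, which no label gives. With a replicate block 914 genes were lower and 571 higher at an unadjusted p under 0.05, 256 were called at an adjusted p, and 0 of the 10 Polycomb genes were called. Depth limits Cbx8 most, with 14.9 reads per kilobase in JMJD1B-/- replicate 1.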
